A study of Homo sapiens with 40 samples.

Results

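The mitochondrial ribosome (mitoribosome) is built from ribosomal RNAs encoded by mitochondrial DNA and from proteins encoded in the nucleus, made in the cytosol and imported. It translates only the mRNAs that mitochondrial DNA carries, which code for subunits of the respiratory chain and the ATP synthase. Its large subunit holds the peptidyl transferase centre and the exit tunnel, and its small subunit holds the decoding site. The genes described here are the protein-coding rows of the count table whose symbol begins with MRPL or MRPS followed by a digit: 78 of 19962 genes, on 21 chromosomes. By known structure, 51 of them belong to the large subunit (MRPS30 and MRPS18A among them, despite their names) and 26 to the small subunit. The remaining one, MRPS36, is now known as a part of the alpha-ketoglutarate dehydrogenase complex and is kept here because its symbol meets the rule. Of the 78, 77 passed the filter on low counts and were tested among 11428 genes. MRPL53, a large-subunit protein near the stalk base, had at most 5 counts in any library and was not tested.

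The series measured poly(A) RNA in RKO, an established human colorectal carcinoma line, to compare loss of IGF2BP2 and IGF2BP3, cytosolic proteins that bind mRNAs and are best known as readers and stabilisers of target transcripts. All 40 libraries came from RKO cells that carry a doxycycline-inducible Cas9 with GFP and a lentiviral vector that expresses a pair of guide RNAs and eBFP2. Cells were sorted as eBFP2-positive populations, so an induced culture can mix edited and unedited cells, and no label names single clones. The guides targeted the safe-harbour locus AAVS1 (line sgAAVS1), IGF2BP2 (line sgIGF2BP2) or IGF2BP3 (line sgIGF2BP3).

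Each of the 10 groups held 4 libraries. All 3 lines were given DMSO or doxycycline (Dox, 250 ng/mL for 72 hours). The sgIGF2BP2 line was also transfected, at 75 nM for 48 hours, with a non-targeting siRNA (siControl) or with siIGF2BP2, and the sgIGF2BP3 line with siControl or siIGF2BP3; no Dox is listed for these 4 groups. Every group, controls included, was given 4-thiouridine (250 µM for 2 hours) before lysis and its RNA was alkylated, and a gene's count here does not separate labelled from unlabelled RNA. Nothing in the labels says whether the 4 libraries of a group came from separate days or passages, so p-values measure the spread between these wells.

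Totals ran from 10018181 to 24822807 counts per library (median 13468792). EPCAM, KRT8, KRT18 and CDX2 were present in all libraries, whereas KRT19, CDH1 and VIL1 were near 0, and so were markers of blood cells, fibroblasts and endothelium. In the induced sgIGF2BP2 line IGF2BP2 stood at 39.7% of its DMSO level and after siIGF2BP2 at 27.9% of siControl. IGF2BP3 stood at 31.2% after Dox in sgIGF2BP3 and at 14.6% after siIGF2BP3. Levels are CPM (read counts scaled to the library total, corrected by TMM factors), and a gene is called, or said to rise or fall, at an adjusted p under 0.05 in edgeR's quasi-likelihood test over all 11428 genes. By this test IGF2BP3 also fell with Dox in sgIGF2BP2, to 84.5% of its DMSO level (log2 fold change -0.25 ± 0.04, SE). With siControl IGF2BP2 rose to 127% of its DMSO level in sgIGF2BP2 and to 122% in sgIGF2BP3. In bulk RNA, less RNA of a gene per cell and fewer cells making it cannot be told apart.

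Promoter sequences are shown first because 2 short motifs stood in a larger share of the members' promoters than of other promoters. Each was absent from most members. RefSeq promoter windows (GRCh38.p14, 250 bases before to 50 after the start) matched 69 of the 78 members. The ETS core CCGGAAG, which GABPA (also called NRF2) binds, was found on either strand in 29 of the 69 (42.0%), against 20.7% of the 9133 promoters of tested genes. The YY1 core AAGATGGCG stood in 13 (18.8%) against 4.36%. The NRF1 motif (its core with 1 free base) stood in 8 (11.6%) against 12.4%, the GC box GGGGCGGGG in 24.6% against 28.8%, and TATAAA in 2.90% against 4.73%. A match is a string of letters in a window, and these data hold no measure of binding. The windows below belong to members whose levels are given later; capitals mark the motif, each line is read 5′ to 3′ on the gene's strand, and positions give the motif's first base relative to the start site.
MRPS23 (ETS, reverse complement, position -14, chr17:57850042-57850068, minus strand): ggagcagccgCTTCCGGttccggtagc
MRPL58 (ETS, position -8, chr17:75012652-75012678, plus strand): gaagcgcccgCCGGAAGcagtcgcaag
MRPL27 (ETS, position -8, chr17:50373176-50373202, minus strand): cttttcgagaCCGGAAGtgagtgatcg
MRPS26 (ETS, reverse complement, position -37, chr20:3046005-3046031, plus strand): ccccgcgccgCTTCCGGggcacggtgg
MRPS21 (ETS, reverse complement, position -11, chr1:150293840-150293866, plus strand): gtaatttccgCTTCCGGtagtgagaac
MRPL22 (YY1, position 36, chr5:154941098-154941122, plus strand): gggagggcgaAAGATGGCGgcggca
MRPS18B (YY1, position 24, chr6:30617853-30617881, plus strand): ggcgtacgtcAAGATGGCGgcgtctgtat
MRPL32 (YY1, reverse complement, position -223, chr7:42932143-42932171, plus strand): acccgcgctcCGCCATCTTtacccgaaga
Set beside the calls described below, the ETS core stood in 10 of the 24 matched members that fell after siIGF2BP2 (41.7%) and in 11 of the 24 matched members that were called in no comparison (45.8%). The YY1 core stood in 6 and 5 of the same sets.

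Levels were compared between genes per kilobase, with the median length of each gene's basic protein-coding transcripts in GENCODE 29. The members spanned 229-fold among those tested, around a median of 43.8 CPM per kb over all 78, with quartiles at 22.5 and 80.2. MRPL51, a large-subunit protein specific to mitochondria, led at 231 CPM per kb (204 to 262 over the 40 libraries). MRPS2, an early-binding protein of the small subunit, followed at 228 (197 to 255) and MRPL41 at 203 (184 to 230). The ranges of these 3 overlapped, so their order is not fixed by these libraries. MRPL4 stood at 163 CPM per kb (137 to 185) and MRPS34 at 162 (137 to 198), and their ranges overlapped as well.

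**Figure D1:**
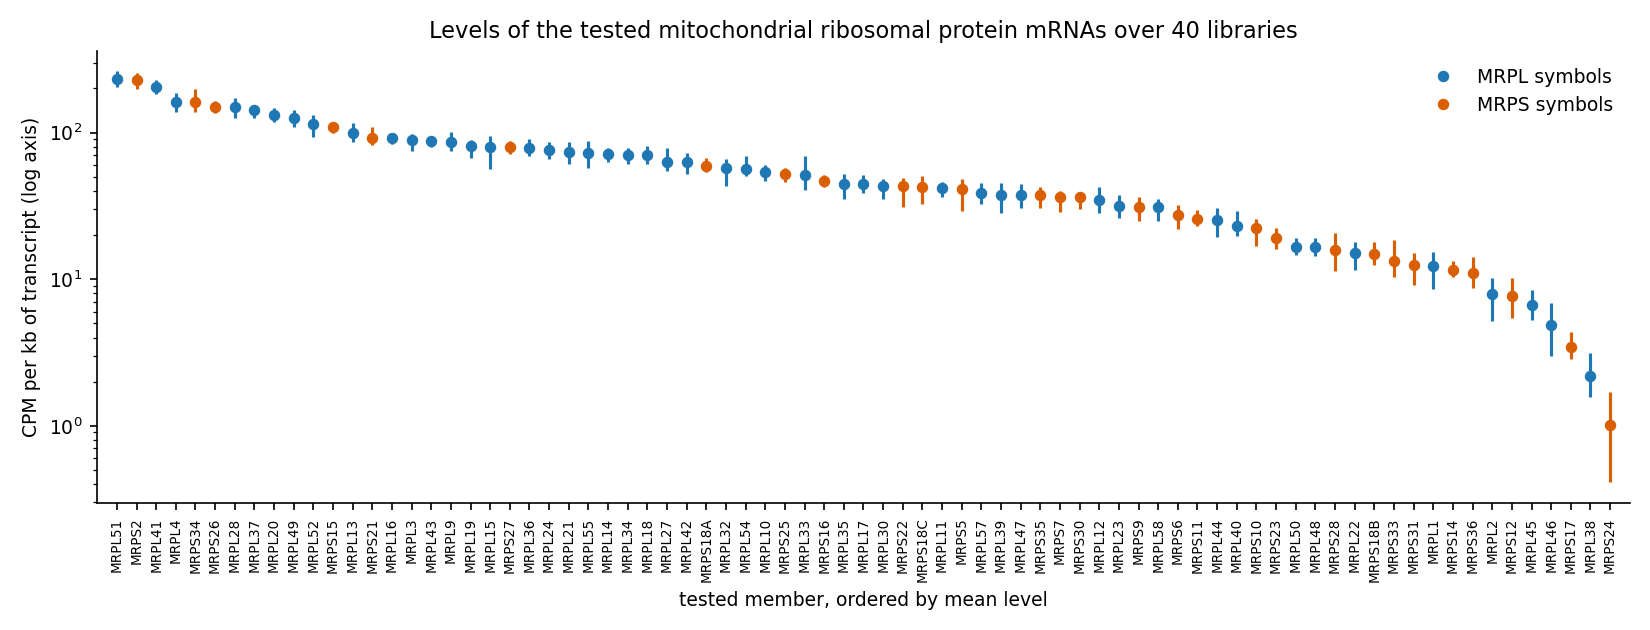
Mean level of each tested member over the 40 libraries in CPM per kb of transcript on a log axis, in descending order; vertical lines run from the lowest to the highest library, and colours separate MRPL from MRPS symbols. Of the 78 members 70 lie at or above 10 CPM per kb, and MRPS17, MRPL38 and MRPS24 close the order.

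The 5 lowest members all share exon bases with a gene on their own strand. MRPL53 was listed at 0.0523 CPM per kb and shares 608 exon bases with CCDC142 on the same strand. MRPS24 (1.01) shares 606 with the readthrough gene URGCP-MRPS24. MRPL38 (2.2 CPM per kb) shares 1373 with AC087289.3, MRPS17 (3.43) shares 583 with AC092647.5 and NIPSNAP2, and MRPL46 (4.85) shares 724 with AC013489.1. How the counting treated shared bases is not given in the sources used here, so these 5 levels are uncertain, and 13 members in all share exon bases with a gene on their own strand. On the opposite strand 21 members share exon bases with a gene. A further limit is that 34 members have at least 1 pseudogene named after them.

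The 3 paralogs of bacterial protein S18 were all present. MRPS18A, which sits in the large subunit, stood at 59.6 CPM per kb (53.8 to 67.2), MRPS18C at 42.2 (32.8 to 51.0) and MRPS18B at 14.9 (12.5 to 17.8). The ranges did not overlap between any of the 3. MRPS18A and MRPS18C were called in none of the 10 comparisons, while MRPS18B fell with Dox and with siControl in sgIGF2BP2, as given below.

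The spread of the members across the 40 libraries was not set beside that of all tested genes. The coefficient of variation of a tested member had a median of 7.48%, from 3.99% for MRPL43 to 30.7% for MRPS24. Of the 77 tested, 51 were called in at least 1 of 10 comparisons and 26 in none. Single comparisons called 2.34% to 36.8% of all tested genes, and their share called in at least 1 was not counted. The most abundant of the 26 was MRPL20 (116 CPM), with log2 fold changes between -0.11 and 0.05, followed by MRPL16 (108 CPM) and MRPS16 (82.1 CPM).

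The summed level of the 78 members gave the outline of the results. Under DMSO it was 5596 ± 98.6 CPM in sgAAVS1, 5617 ± 22.5 in sgIGF2BP2 and 5494 ± 59.7 in sgIGF2BP3 (mean ± SD, n = 4 each). With Dox it was 5304 ± 95, 5344 ± 147 and 5343 ± 35.8 in the same order, and in each line every Dox library lay below every DMSO library. With siControl it was 5272 ± 41.7 in sgIGF2BP2 and 5270 ± 41.5 in sgIGF2BP3, again below all DMSO libraries of the line. It was 5255 ± 59.9 after siIGF2BP3, where the libraries overlapped with siControl. After siIGF2BP2 the libraries gave 4819, 4891, 5424 and 4918 CPM: 3 lay below all siControl libraries and replicate 3 lay above all of them. The sum is weighted to abundant members and was not tested; the counts below are per gene.

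**Figure D2:**
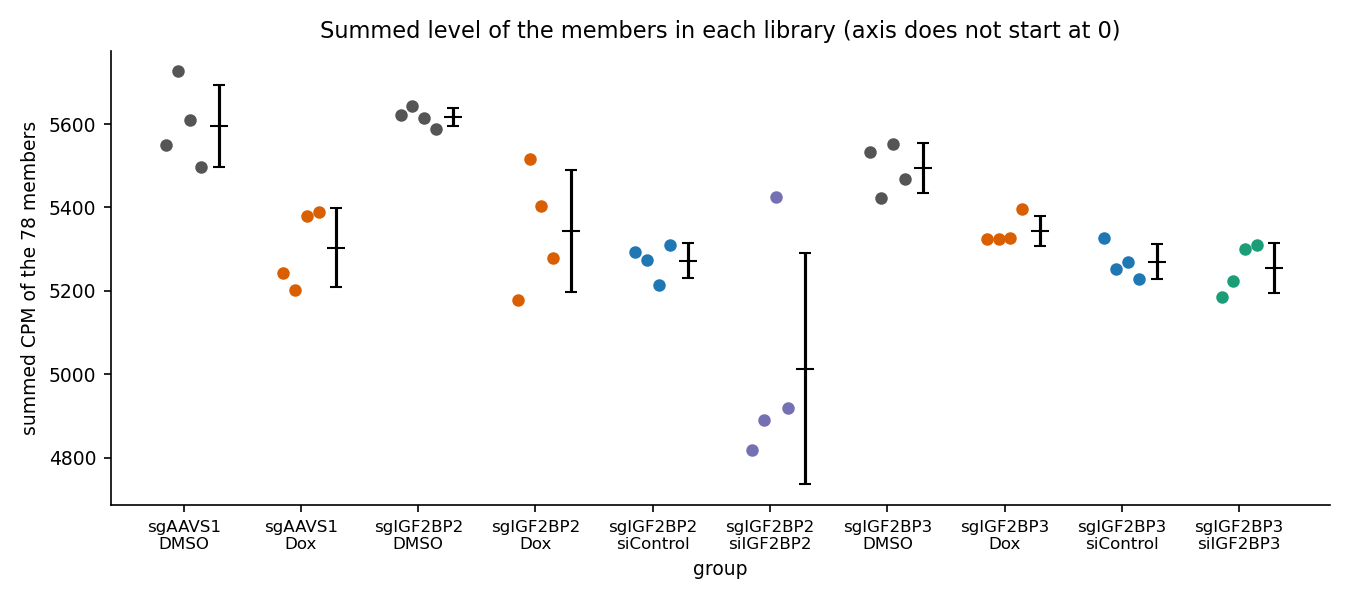
Summed CPM of the 78 members in each library, by group; points are single libraries and the bar beside them shows the mean ± SD (n = 4), on an axis that does not start at 0. DMSO libraries sit between 5422 and 5726, and 3 of the siIGF2BP2 libraries sit between 4819 and 4918 with replicate 3 at 5424.

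After knockdown of IGF2BP2 with siRNA the called members mostly fell. Compared with siControl in the same line, 27 members fell and 3 rose, 35.1% lower against 18.4% of all tested genes called lower and 18.4% called higher. The 30 calls of 77 in either direction stand beside 36.8% of all tested genes, so their number is near the background and their direction is not balanced. Their median log2 fold change was -0.08, against 0.01 for all tested genes; it was -0.14 with an offset for GC content and length and -0.12 without siIGF2BP2 replicate 3. The large subunit gave 18 of 50 lower and 0 higher, and the small subunit 9 of 26 lower and 3 higher. Of 8 members listed here for the exit-tunnel side of the large subunit, 4 fell (MRPL22, MRPL39, MRPL44 and MRPL47), with a median of -0.17. Of 7 listed here for the central protuberance 1 fell (MRPL52) and 6 lay above 0, with a median of 0.14, and of the 3 tested stalk proteins 0 were called. These lists may leave out members. MRPL4, which lines the exit tunnel and also fell, is in none of them. Neither are MRPL58, which fell, and MRPL55, which was not called. Of the 48 members with a bacterial homologue 15 fell and 1 rose, and of the 28 tested members specific to mitochondria 12 fell and 2 rose.

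MRPL15, a core protein of the large subunit, fell most. Its siControl libraries held 90.2, 95.2, 88.7 and 93.7 CPM and its siIGF2BP2 libraries 67.2, 65.2, 68.2 and 64.3. Every siIGF2BP2 library lay below every siControl library, and the log2 fold change was -0.47 ± 0.04 (SE), adjusted p = 4.5e-14. MRPS5, a small-subunit protein near the mRNA entry channel, read 70.7, 68.0, 68.7 and 70.0 CPM with siControl and 48.4, 53.4, 57.9 and 51.8 with siIGF2BP2 (-0.39 ± 0.05, adjusted p = 2.5e-10). The groups did not overlap for MRPS5 either, although replicate 3 gave the highest value after siIGF2BP2. MRPS5 shares 550 exon bases with ZNF514 on the same strand.

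MRPL35, a large-subunit protein, read 42.3, 42.6, 43.7 and 42.9 CPM with siControl and 35.3, 35.3, 33.3 and 34.9 with siIGF2BP2 (-0.30 ± 0.06, adjusted p = 1.4e-05). MRPL32, whose maturation by the m-AAA protease is a known step of mitoribosome assembly, read 55.9, 60.3, 56.6 and 57.9 CPM and then 48.4, 44.5, 46.6 and 47.9 (-0.30 ± 0.05, adjusted p = 4.9e-07). Both again had groups that did not overlap. MRPL32 shares 24 exon bases with PSMA2 on the opposite strand. In the other direction MRPS21, the mitochondrial counterpart of bacterial S21, read 116, 115, 121 and 114 CPM with siControl and 127, 130, 147 and 133 with siIGF2BP2 (0.20 ± 0.04, adjusted p = 9.5e-06). The siControl level of MRPS21 was itself called lower than its DMSO level, as given below. MRPS33 (0.32 ± 0.10) and MRPS34 (0.12 ± 0.04) also rose, with overlapping groups, and with an offset for GC content and length MRPS34 stood at -0.01.

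**Figure D3:**
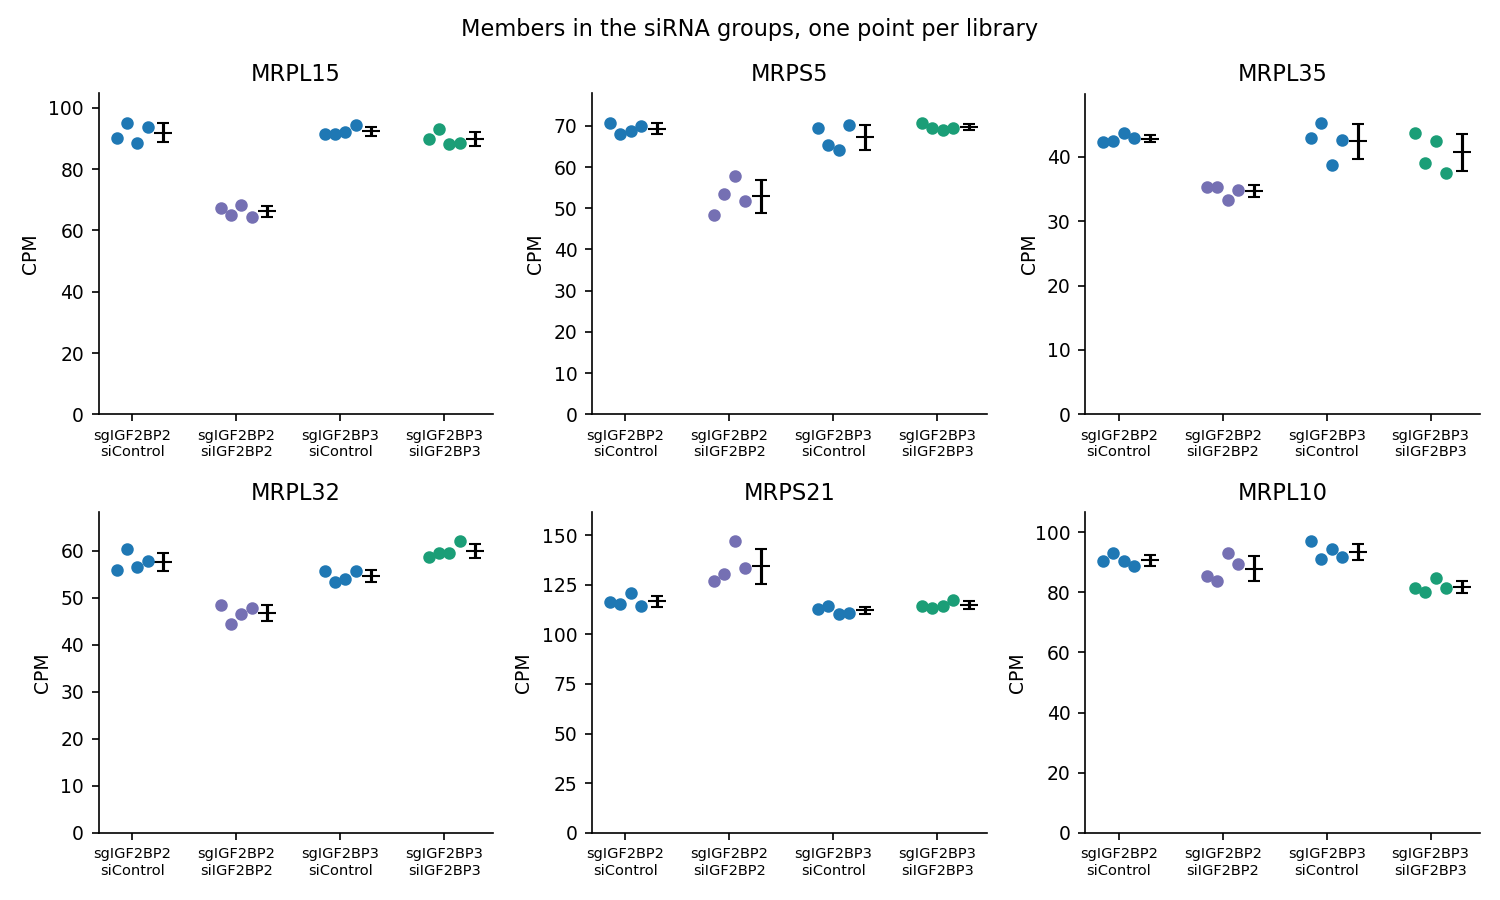
CPM of 6 members in the 4 siRNA groups, on axes from 0; points are single libraries and bars show mean ± SD (n = 4). MRPL15, MRPS5, MRPL35 and MRPL32 lie lower and MRPS21 higher after siIGF2BP2, and MRPL10 lies lower after siIGF2BP3.

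The rest of the 27 included MRPL39 (-0.32 ± 0.07), MRPL1 (-0.27 ± 0.08), MRPS10 (-0.25 ± 0.05) and MRPL58 (-0.23 ± 0.07), and the smallest falls were those of MRPL37 and MRPS26 (both -0.10). Of the 27, 16 had groups that did not overlap (20.8% of the 77 members, against 15.6% of all tested genes separated in that direction). Of the 11 that overlapped 9 no longer did so without siIGF2BP2 replicate 3. That library stood out by its high sum of these same members, so leaving it out favours separation and falls of members. How many of all tested genes lose their overlap in this way was not counted. Without that library 37 members fell and 1 rose, against 17.4% of tested genes lower and 16.4% higher. That library also stood apart in cytosolic ribosomal protein mRNAs, at 88943 summed CPM against 74568 to 77467 in the other 3 libraries of the group. Members are short (median transcript 1147 bases against 2552 for all tested genes). Other tested genes of like length (899 to 1582 bases, n = 1780) had a median of 0.05 in this comparison, with 13.3% lower and 23.7% higher.

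Other genes of the pathway were also called, some at shares near the background. Of 29 tested genes for mitoribosome assembly 9 fell and 3 rose after siIGF2BP2 (31.0% and 10.3%, against 18.4% of all tested genes in each direction). The rises, all without overlap, were those of YBEY (0.33 ± 0.10), MTG1 (0.20 ± 0.07) and MTG2 (0.13 ± 0.05). The falls included MRM3, a methyltransferase of the large ribosomal RNA (-0.27 ± 0.06), ERAL1, a chaperone of the small ribosomal RNA (-0.23 ± 0.04, with overlapping groups), and GTPBP10, a GTPase of large-subunit maturation (-0.23 ± 0.07). Of 16 translation factors and mRNA-handling proteins 3 fell and 0 rose, near the 18.4% of all tested genes. LRPPRC, which stabilises mitochondrial mRNAs, went from 293 ± 4.40 to 206 ± 6.87 CPM (mean ± SD, n = 4; log2 fold change -0.51 ± 0.03, adjusted p = 3.1e-21), with no overlap. Its partner SLIRP was not called. Of 5 mitoribosomal proteins under other names 1 fell and 1 rose (20% each). DAP3, a small-subunit protein, fell by 0.23 ± 0.04 on the log2 scale, and CHCHD1 rose by 0.14 ± 0.06, both without overlap.

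Few of the transcripts the mitoribosome translates were called. Of the 13 mRNAs of mitochondrial DNA, MT-ND1 (-0.26 ± 0.07) and MT-ND4L (-0.20 ± 0.05) fell and MT-ND6 (0.25 ± 0.09) rose after siIGF2BP2. Groups overlapped for MT-ND4L and MT-ND6. Of the 13, 15.4% fell and 7.69% rose, against 18.4% of all tested genes in each direction. MT-ND6 also rose after siIGF2BP3, without overlap (0.38 ± 0.09, adjusted p = 0.0081). Its siControl level was itself called lower than its DMSO level in both lines. In sgIGF2BP2 its means were 205 CPM with DMSO, 173 with siControl and 205 with siIGF2BP2. In sgIGF2BP3 they were 227 with DMSO, 143 with siControl and 188 with siIGF2BP3. Of the mRNAs of the cytosolic ribosome 8 of 77 rose and 1 fell after siIGF2BP2 (10.4% and 1.3%), both shares below those 18.4%, with a median of 0.04. Among regulators of mitochondrial biogenesis 4 of 10 fell and 1 rose, with TFB2M, a factor of mitochondrial transcription, at -0.31 ± 0.06 and MYC at -0.50 ± 0.04. GABPA, the ETS protein named above, stood at -0.20 ± 0.07 with overlapping groups. NRF1 rose (0.24 ± 0.07).

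Knockdown of IGF2BP3 gave a single call among the members. In the sgIGF2BP3 line 1 member fell and 0 rose, against 1.4% of tested genes lower and 0.936% higher (2.34% in either direction), and the median was 0.00. The member was MRPL10, a protein of the stalk base. It read 97.0, 91.3, 94.3 and 91.7 CPM with siControl and 81.5, 80.0, 84.8 and 81.3 with siIGF2BP3, with no overlap (-0.19 ± 0.04, adjusted p = 0.0015). In the siIGF2BP2 comparison it was not called (-0.04 ± 0.04). Fitting only the groups compared, and the offset for GC content and length, each gave 2 calls. Of all tested genes 2.43% and 3.36% were then lower and 1.77% and 1.26% higher.

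Those siRNA effects differed between the lines by a test of the difference itself for 12 members. The siIGF2BP3 effect minus the siIGF2BP2 effect was above 0 for 11 and below 0 for 1, against 9.88% and 8.82% of tested genes. It was 0.44 ± 0.06 for MRPL15, 0.44 ± 0.07 for MRPS5, 0.43 ± 0.07 for MRPL32 and 0.24 ± 0.08 for MRPL35, and -0.17 ± 0.05 for MRPS21. In the siIGF2BP3 comparison alone MRPL15 read -0.04, MRPS5 0.05 and MRPL32 0.13, none of them called. The siRNA, the target and the guide line change together in this difference and cannot be told apart. The offset for GC content and length gave 26 above 0 and 1 below (12.9% and 9.46% of tested genes). Leaving out siIGF2BP2 replicate 3 gave 19 above 0, with 9.75% of tested genes above and 8.02% below.

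With Dox a limited set of members fell in 2 of the 3 lines, and 1 in the other. In sgAAVS1, where the guides cut a control locus, 10 members fell and 1 rose, against 8.68% of tested genes lower and 7.25% higher (15.9% in either direction), with a median of -0.06. In sgIGF2BP2, 15 fell and 0 rose, against 10.4% and 10% of tested genes (20.4% in either direction), with a median of -0.05. In sgIGF2BP3, 1 fell and 0 rose, against 1.01% and 1.64% (2.64% in either direction), with a median of -0.04. Of the tested members 59, 56 and 56 lay below 0, against 48.7%, 47.6% and 48.7% of all tested genes. The sgAAVS1 comparison measures Dox and Cas9 cutting without guides to either gene.

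The falls in sgAAVS1 included neighbours on 1 chromosome. Of the 6 members between SPOP and the end of the long arm of chromosome 17 (distal 17q), 5 fell: MRPL27, MRPS23, MRPL58, MRPS7 and MRPL12. Their median with MRPL38 was -0.25, and the 250 tested genes of that stretch had a median of -0.17 with 130 of them called lower. The other 71 members gave 5 falls, 1 rise and a median of -0.04, a share of falls below the 8.68% of all tested genes. In sgIGF2BP2 and sgIGF2BP3, 0 of the 6 were called, and the medians of the 250 genes were 0.02 and 0.01. This stretch was chosen with earlier results of these data known.

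MRPL12, a stalk protein that also binds the mitochondrial RNA polymerase (chr17:81703357-81707526 in GENCODE 29 on hg38), read 40.2, 39.8, 37.5 and 36.8 CPM with DMSO and 31.7, 32.1, 29.2 and 31.7 with Dox in sgAAVS1. The groups did not overlap and the log2 fold change was -0.30 ± 0.07 (adjusted p = 0.0013). It shares 701 exon bases with AC139530.2 on the same strand. MRPL58, a peptidyl-tRNA hydrolase that became a part of the large subunit (chr17:75012670-75021261), read 27.4, 30.7, 31.5 and 31.1 and then 25.2, 24.1, 26.2 and 24.6 CPM (-0.27 ± 0.07, adjusted p = 0.0022). MRPS7 (chr17:75261674-75266373) read 64.9, 65.5, 59.3 and 56.4 and then 47.0, 50.6, 55.5 and 53.2 CPM (-0.26 ± 0.06, adjusted p = 0.0005), with no overlap in either gene.

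MRPS23 (chr17:57834781-57850056) read 60.9, 68.0, 60.1 and 61.8 CPM with DMSO and 51.3, 50.8, 54.3 and 54.9 with Dox (-0.25 ± 0.05, adjusted p = 0.00015). MRPL27 (chr17:50367857-50373214) read 48.0, 48.5, 49.9 and 47.6 and then 41.2, 42.0, 41.3 and 43.6 CPM (-0.21 ± 0.06, adjusted p = 0.013). Both were fully separated. MRPL38, at 3.59 to 5.21 CPM with DMSO and 3.03 to 4.83 with Dox, had overlapping groups and was not called (-0.25 ± 0.17, adjusted p = 0.35). No member lies between the end of 7p and IGF2BP3.

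**Figure D4:**
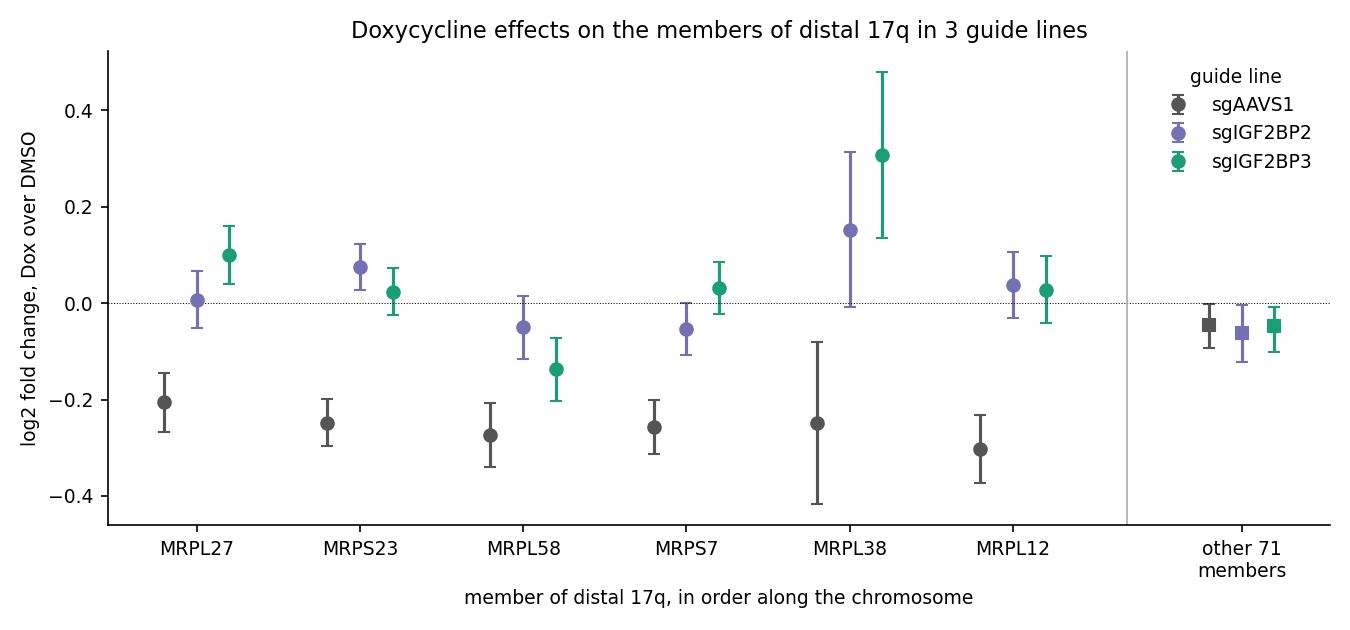
Log2 fold change of Dox over DMSO for the 6 members of distal 17q in the 3 guide lines (circles, bars are ± SE), with the median and quartiles of the other 71 members (squares). In sgAAVS1 all 6 lie between -0.30 and -0.21, and in the other lines they scatter from -0.14 to 0.31.

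Differences between lines were called for some of these genes. Relative to sgAAVS1, the Dox effect in sgIGF2BP2 was higher for 2 members, MRPL12 (0.34 ± 0.10) and MRPS23 (0.32 ± 0.07), and lower for MRPL22 (-0.25 ± 0.08), against 4.01% of tested genes higher and 2.97% lower (6.97% in either direction). In sgIGF2BP3 it was higher for 5 members and lower for 2, against 4.53% and 3.25% (7.78% in either direction). The 5 were MRPL12, MRPL27, MRPS7 and MRPS23 of distal 17q (0.27 to 0.33) and MRPS34 (0.21 ± 0.06). The 2 were MRPL22 (-0.27 ± 0.08) and MRPS35 (-0.21 ± 0.07). Both differences share the sgAAVS1 libraries. In the sgIGF2BP2 difference the call of MRPL22 was lost in 12 of 23 alternatives and that of MRPL12 in 4. In the sgIGF2BP3 difference the call of MRPS35 was lost in 12, those of MRPL22 and MRPL12 in 7 each, that of MRPS34 in 3 and that of MRPS7 in 1. MRPS23 in both differences and MRPL27 kept theirs in all 23. The first count was 7 without sgAAVS1 DMSO replicate 4 and 1 without sgIGF2BP2 DMSO replicate 1. Of all tested genes 5.61% and 3.1% were then higher and 4.52% and 2.01% lower. The second count was 13 without sgAAVS1 DMSO replicate 4, 4 without replicate 2 of that group, 3 without sgIGF2BP3 Dox replicate 4 and 3 with the offset for GC content and length. In the same order 7.13%, 2.97%, 2.5% and 2.44% of tested genes were higher and 5.21%, 1.74%, 1.23% and 1.5% lower.

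Outside distal 17q, MRPS34, MRPS26, MRPL41, MRPL4 and MRPS2 fell with Dox in sgAAVS1 (-0.22 to -0.16) and MRPL33 rose. MRPL33, a short large-subunit protein, read 21.8, 23.4, 21.1 and 22.8 CPM with DMSO and 25.2, 28.2, 29.8 and 25.1 with Dox (0.27 ± 0.08, adjusted p = 0.017). Its groups did not overlap in sgAAVS1, and it was not called in the other lines. The call was lost in 3 of 15 alternatives, without sgAAVS1 DMSO replicate 3, Dox replicate 2 or Dox replicate 3. MRPL33 shares 324 exon bases with BABAM2 on the same strand. With the offset for GC content and length 19 members fell and 1 rose in sgAAVS1, against 12.8% and 6.44% of tested genes.

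In sgIGF2BP2 with Dox the greatest falls with no overlap were those of MRPS18B, MRPS34, MRPS21 and MRPL9. MRPS18B read 24.8, 27.3, 25.8 and 24.8 CPM with DMSO and 19.4, 22.6, 22.1 and 21.2 with Dox (-0.27 ± 0.07, adjusted p = 0.0032). MRPS34, a small-subunit protein specific to mitochondria, read 155, 175, 170 and 181 and then 142, 149, 154 and 145 (-0.21 ± 0.04, adjusted p = 0.00012). MRPS21 read 131, 133, 133 and 136 and then 115, 115, 123 and 121 (-0.17 ± 0.04, adjusted p = 0.00043). Its rise after siIGF2BP2 was measured from another control, in which MRPS21 was itself called lower than under DMSO. Per kb its mean in this line was 99.2 CPM for the DMSO group and 86.8 for siControl. After siIGF2BP2 the mean was 99.9 CPM per kb, near that of the DMSO group. MRPL9, a large-subunit protein with a bacterial homologue, went from 102 ± 6.07 to 91.3 ± 2.55 CPM (-0.16 ± 0.04, adjusted p = 0.007).

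The small subunit gave 8 of 26 lower and the large subunit 7 of 50 in that comparison. MRPL15, MRPS5, MRPL35 and MRPL32, which led the falls after siIGF2BP2, were not called with Dox in the same line (0.06, -0.03, 0.01 and -0.03, each with an SE of 0.04 to 0.06). Both comparisons lowered IGF2BP2, by different means, at different times and against different controls, and their values are given side by side only. The count of 15 was 8 without Dox replicate 1, with a median of -0.03, and 18 without Dox replicate 2. Of all tested genes 9.25% and 9.34% were then lower and 8.91% and 8.69% higher. Replicate 2 also stood apart in the mRNAs of mitochondrial DNA, at 57443 summed CPM against 82627 to 90674 in the other 3. With the offset for GC content and length the count was 23, all lower, against 19% of tested genes lower.

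In sgIGF2BP3 with Dox the single fall was that of MRPS35, a small-subunit protein specific to mitochondria. It read 70.9, 76.2, 75.3 and 70.7 CPM with DMSO and 70.3, 65.5, 64.0 and 62.1 with Dox (-0.16 ± 0.05, adjusted p = 0.036). The groups did not overlap, but the call was lost in 7 of 15 alternatives: the offset for GC content and length, thinning to the smallest total, and leaving out any one of DMSO replicates 2 and 3 or Dox replicates 2, 3 and 4.

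MRPL4, MRPS2 and MRPS26 were the members called in the same direction in at least 3 of the 5 treatment comparisons, and all 3 fell. MRPL4, a large-subunit protein that lines the exit tunnel, had log2 fold changes of -0.16 with Dox in sgAAVS1, -0.11 with Dox in sgIGF2BP2 and -0.18 with siIGF2BP2. MRPS2 gave -0.16, -0.11 and -0.13, and MRPS26, a small-subunit protein specific to mitochondria, gave -0.21, -0.15 and -0.10. For MRPS26 the sgAAVS1 libraries read 186, 185, 182 and 170 CPM with DMSO and 155, 158, 155 and 156 with Dox, and in sgIGF2BP3, where it was not called, 178, 171, 175 and 172 and then 166, 163, 165 and 170. In that last line the groups were also separated, though by less (-0.07 ± 0.04, adjusted p = 0.33). For each of the 3, 1 of these calls was lost in some of 15 alternatives: with Dox in sgIGF2BP2 in 5 for MRPL4 and 2 for MRPS2, and after siIGF2BP2 in 4 for MRPS26. No member was called higher in 2 or more of the 5 comparisons. Such repeated calls were not counted over all tested genes. MRPS2 shares 104 exon bases with C9orf116 on the opposite strand.

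After transfection with the non-targeting siRNA members fell in both lines. Against DMSO, 21 members fell and 0 rose with siControl in sgIGF2BP2, against 8.16% of tested genes lower and 10.2% higher. In sgIGF2BP3 20 fell and 0 rose, against 8.54% and 10.9%. The median was -0.09 with 73 of 77 below 0 in the first line, and -0.08 with 57 of 77 below 0 in the second, where 50.7% and 51.3% of all tested genes lay below 0. Of these, 13 members fell in both lines: MRPL9, MRPL13, MRPL18, MRPL22, MRPL32, MRPL47, MRPL49, MRPL51, MRPL57, MRPS9, MRPS21, MRPS22 and MRPS35. The share of all tested genes that fell in both lines was not counted. These 2 comparisons share no library with each other, but they share siControl with the siRNA comparisons and DMSO with the Dox comparisons above. Transfection, its reagent, and the DMSO of the controls differ together and cannot be told apart.

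In sgIGF2BP2 the greatest falls with no overlap were those of MRPL2, MRPL22, MRPS22 and MRPL51. MRPL2, a core protein of the large subunit, read 8.69, 7.81, 8.76 and 8.52 CPM with DMSO and 5.51, 7.21, 5.73 and 7.31 with siControl (-0.41 ± 0.12, adjusted p = 0.0093). MRPL51, the most abundant member per kb, went from 138 ± 4.80 to 119 ± 3.16 CPM (-0.21 ± 0.04, adjusted p = 0.00027). MRPL22 at the exit tunnel (-0.22 ± 0.05) and MRPS22 of the small subunit (-0.21 ± 0.05) fell alike. MRPS18B was called with overlapping groups (-0.18 ± 0.07, adjusted p = 0.048), a call lost in 11 of 15 alternatives. MRPL51 shares 486 exon bases with NCAPD2 on the opposite strand.

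In sgIGF2BP3 the greatest were MRPS28, MRPL1, MRPL13 and MRPL42. MRPS28, a small-subunit protein of low level, read 9.84, 10.5, 10.5 and 10.1 CPM with DMSO and 8.80, 6.68, 7.68 and 6.98 with siControl (-0.46 ± 0.12, adjusted p = 0.0033). It shares 650 exon bases with AC036214.3 on the same strand. MRPL1, a protein of the L1 stalk, read 19.1, 18.3, 22.8 and 22.8 and then 15.9, 16.2, 14.5 and 16.9 (-0.38 ± 0.08, adjusted p = 0.00032). MRPL13 went from 112 ± 2.52 to 95.8 ± 1.63 CPM (-0.23 ± 0.05) and MRPL42 from 64.0 ± 2.81 to 55.2 ± 2.96 (-0.22 ± 0.05). In sgIGF2BP2 MRPL13 also fell (-0.19 ± 0.05).

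Both counts moved when single libraries were left out. The count in sgIGF2BP2 was 12 without siControl replicate 3 and 13 without siControl replicate 2. Of all tested genes 6.69% and 6.21% were then lower and 9.16% and 8.82% higher. In sgIGF2BP3 the count was 12 without siControl replicate 2 (6.09% of tested genes lower, 8.75% higher). It was 11 with the offset for GC content and length (9.25% lower, 10.9% higher), which gave a median of -0.04. Members are short, and other tested genes of like length had medians of -0.03 and -0.02 in the 2 lines, with 11.6% and 10.1% lower.

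Cytosolic ribosomal protein mRNAs also fell with siControl. Of 77 tested cytosolic ribosomal protein mRNAs 43 fell and 0 rose in sgIGF2BP2, and 31 fell and 0 rose in sgIGF2BP3, with medians of -0.11 and -0.09. Of all tested genes 8.16% and 8.54% fell. Assembly genes gave 5 and 4 falls of 29, with C1QBP, a matrix protein that binds the mitoribosome, at -0.17 in both lines. TFAM, which packages mitochondrial DNA, fell by 0.20 ± 0.05 and 0.26 ± 0.05 on the log2 scale. SLIRP fell by 0.27 ± 0.05 in both, while LRPPRC rose by 0.12 ± 0.03 and 0.09 ± 0.03. MT-ATP8 and MT-ND6 were the only mRNAs of mitochondrial DNA called, both lower in both lines. The groups of MT-ND6 overlapped in sgIGF2BP2.

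Related genes were called with Dox in sgAAVS1 and sgIGF2BP2. Of all tested genes 8.68% fell in sgAAVS1, and in sgIGF2BP2 10.4% fell and 10% rose. Of 29 assembly genes 4 fell in sgAAVS1 (13.8%): C1QBP, ERAL1, RPUSD3 and, with overlapping groups, RCC1L. In sgIGF2BP2 1 rose (MPV17L2, 3.45%) and in sgIGF2BP3 0 were called. Cytosolic ribosomal protein mRNAs gave 8 falls of 77 (10.4%), then 2 rises and 2 falls (2.6% each), then no call, in the same order of lines. Of 10 regulators of biogenesis, MYC (-0.41 ± 0.04), PPRC1 (-0.16 ± 0.04) and POLRMT (-0.14 ± 0.04, with overlapping groups) fell in sgAAVS1. In sgIGF2BP2 MYC (0.19 ± 0.04) and ESRRA (0.16 ± 0.05) rose and GABPB1 (-0.24 ± 0.06) and TFAM (-0.18 ± 0.05) fell, and in sgIGF2BP3 0 were called. The groups of MYC and GABPB1 overlapped in sgIGF2BP2. OXA1L, which inserts new proteins into the inner membrane, and TUFM, the mitochondrial elongation factor, fell in sgAAVS1 (-0.14 ± 0.04 and -0.12 ± 0.03).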

How the data were processed

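Poly(A) RNA of 40 libraries in 10 groups of 4 was measured. The authors deposited 1 table of raw whole-number read counts per gene, 1 column per library, with no normalization. Per the submitters' processing notes, bcl2fastq 2.20.0.422 and STAR 2.7.5c were used with hg38; the counting program, its strand setting and the gene annotation are not given in the sources used here. Ensembl identifiers were matched to GENCODE 29 symbols.

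From the counts, edgeR 4.0.16 in R 4.3.3 computed TMM factors (0.978 to 1.03), kept 11428 genes with filterByExpr (99.98% of counts) and tested 10 contrasts with its quasi-likelihood test, 1 coefficient per group over all 40 libraries, with Benjamini-Hochberg adjustment over all tested genes. SE is the log2 fold change over the square root of F. The method was tested on simulated counts. Alternatives were DESeq2 1.42.0, size factors of its kind, no filter, a GC and length offset, thinning to the smallest total, only the groups compared, a replicate block, and each library left out.

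Members named with values were, per contrast, up to 4 rises and 4 falls among calls whose groups did not overlap, members called alike in at least 3 of 5 treatments, the 5 highest and 5 lowest levels, members of distal 17q, and the S18 paralogs; others were named after their values were seen. The members and lists were chosen with earlier results of these data known. Replicate pairs differed by 1.49 to 16.7 in chi-square per gene, so no library was counted as a copy of another.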

Additional observations from a re-analysis of the deposited data

Results flagged for a closer look

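In the siIGF2BP2 group the summed level of the members was 5424 CPM in replicate 3, far from the other 3 libraries, and the summed level of the large subunit was 3577 CPM in the same library. In sgIGF2BP3 with Dox the members summed to 5397 CPM in replicate 4, above the 3 others, which were close together. MRPL12 read 29.2 CPM in replicate 3 of sgAAVS1 with Dox, below the other 3. These 4 values came from 82 groups tested with Dixon's criterion, and chance marks about 5% of groups.

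For 22 member and line pairs the effect differed between lines by an interaction test in edgeR with an adjusted p under 0.05. Relative to sgAAVS1, the Dox effect in sgIGF2BP2 differed by -0.25 for MRPL22, 0.32 for MRPS23 and 0.34 for MRPL12. In sgIGF2BP3 it differed by -0.27 for MRPL22, -0.21 for MRPS35, 0.21 for MRPS34, 0.27 for MRPS23, 0.29 for MRPS7, 0.31 for MRPL27 and 0.33 for MRPL12. The siIGF2BP3 effect minus the siIGF2BP2 effect was -0.17 for MRPS21, 0.20 for MRPS23, 0.22 for MRPL52, 0.24 for MRPL35 and MRPS9, 0.27 for MRPL44, 0.29 for MRPS10, 0.34 for MRPL39 and MRPL1, 0.43 for MRPL32, and 0.44 for MRPL15 and MRPS5. All are on the log2 scale.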

How the results depend on the processing

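Counts of called members are given. With an offset for GC content and length they were 20 for Dox in sgAAVS1, 23 in sgIGF2BP2 and 2 in sgIGF2BP3, 2 for siIGF2BP3, 3 for the Dox difference of sgIGF2BP3 from sgAAVS1, 27 for the difference between siRNAs and 11 for siControl in sgIGF2BP3. In the same order 12.8%, 19%, 2.4%, 3.36%, 1.5%, 9.46% and 9.25% of tested genes were called lower with this offset. Called higher were 6.44%, 8.05%, 1.08%, 1.26%, 2.44%, 12.9% and 10.9%. MRPS34 after siIGF2BP2 turned to -0.0093 (log2). For Dox in sgIGF2BP3 the count was 2 without the low-count filter, 2 with only the groups compared and 0 after thinning. For siIGF2BP3 it was 2 with only the groups compared. In the same order 1.04%, 1.9%, 0.568% and 2.43% of tested genes were called lower and 1.3%, 2.38%, 1.04% and 1.77% higher. The cause was not tested. Leaving out 1 library gave 10 to 14 for Dox in sgAAVS1, 8 to 18 in sgIGF2BP2 and 0 to 1 in sgIGF2BP3, 25 to 38 for siIGF2BP2 and 1 for siIGF2BP3. It gave 1 to 7 and 3 to 13 for the Dox differences of sgIGF2BP2 and sgIGF2BP3 from sgAAVS1, 10 to 19 for the difference between siRNAs, and 12 to 17 and 12 to 18 for siControl in sgIGF2BP2 and sgIGF2BP3. The share of all tested genes called moved as well. At 10 and 14 calls for Dox in sgAAVS1, 6.67% and 10% of tested genes were lower and 5.76% and 7.46% higher. At 25 and 38 calls for siIGF2BP2, 16.7% and 17.4% were lower and 16% and 16.4% higher. Over 121 called member and comparison pairs, 930 leave-one-out values kept their call and 214 lost it, and of the other alternatives 781 kept it, 65 lost it and 1 reversed. Deviations of same-numbered libraries were at most weakly correlated (r -0.0896 to 0.0924). For siControl against DMSO in sgIGF2BP2 the closest DMSO library was the same-numbered one each time (r 0.0924, 0.0754, 0.0437 and 0.0441). Whether the numbers pair libraries was not tested. With the replicate block the counts were 11, 14 and 1 for Dox in sgAAVS1, sgIGF2BP2 and sgIGF2BP3, 31 for siIGF2BP2 and 1 for siIGF2BP3. They were 3, 7 and 13 for the 3 differences, and 19 and 21 for siControl. In the same order 9.07%, 10.7%, 1.17%, 18.7%, 1.51%, 3.35%, 3.6%, 9.2%, 8.51% and 8.98% of tested genes were called lower. Called higher were 7.67%, 10.3%, 1.82%, 18.8%, 1.04%, 4.34%, 5.03%, 10.3%, 10.6% and 11.3%. Members with under 10 CPM, 9 in all, had the least precision.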
